A study of Mus musculus with 4 samples.

Results

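The contractile and SRF target genes are 33 genes of the actin cytoskeleton in fibroblasts and smooth muscle cells, together with the transcription factor SRF and its coactivators. They were taken by symbol from a given list, and all probes with such a symbol in the platform annotation were used. Of the 33 genes, 27 had at least 1 probe, 49 probes in all, among 16593 genes and 25697 probes on the arrays. Of these 27, 23 had a brightest probe above background on all 4 arrays, and 4 (Actg1, Cnn1, Mrtfa and Mrtfb) did not reach background on 2 arrays. Tagln2, Myl9, Tpm4, Flna, Flnc and Tgfb1i1 were matched to no named probe and were not analysed here.

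The cells were embryonic fibroblasts of p19ARF-/- mice, grown in DMEM with serum and given no treatment. All of them lack p19ARF, an inhibitor of MDM2 that stabilises p53, so both groups share this deletion. Stable transduction gave 1 group a control vector and the other NSD2 in its wild-type form, a histone methyltransferase that dimethylates H3K36. Total RNA was hybridised to Illumina mouse bead arrays, and 2 arrays per group were analysed here (n = 2), where the design text speaks of triplicates. The labels name no promoter for the transgene, and do not say whether the replicates came from separate cultures, so p-values describe the spread of these arrays alone, and that spread may be technical.

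SRF is a transcription factor that binds CArG boxes in the promoters of actin, of many actin-binding proteins and of immediate-early genes. Its coactivators MRTF-A and MRTF-B are held in the cytoplasm by monomeric actin, and they enter the nucleus when actin polymerises. In fibroblasts this pathway is known for the contractile programme of myofibroblasts, with smooth muscle actin in stress fibres, and several of its targets are shared with the YAP and TEAD factors of the Hippo pathway.

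The median signal of an array lay between 164 and 204, and 42.3% to 45.9% of the probes were above background. Of the fibroblast markers 10 of 13 with a probe were above background on at least 2 arrays, among them Col1a1, Col3a1, Pdgfra and Vim, whereas Fap and Lum were above it on none. The labels also carry an entry for blood as the tissue, and entries for sex and age that do not describe embryonic cells and were not used. Of the blood markers 2 of 10 were above background (Cd14 and Cd3e), with the globin gene Hba-a1, the erythroid factor gene Klf1 and the myeloid factor gene Spi1 above it on 0 arrays. Of the epithelial markers 5 of 9 with a probe were above background, and of the endothelial markers 2 of 9. Means of the 10 fibroblast markers differed by -0.45 to 0.51 (7 higher with NSD2, 3 lower). Those of the 5 epithelial markers differed by -0.41 to 0.24 (2 higher, 3 lower). Both endothelial markers were lower (-0.65 and -0.11), as were both blood markers (-0.18 and -0.09). None of these markers passed (limma adjusted p at least 0.9996). The summed signal of the epithelial markers was 20898 and 37411 with control vector and 25949 and 37817 with NSD2. Of the striated muscle genes 1 of 16, Des, was above background, and the list's summed signal, mostly of probes not above background, was 2807 and 3270 with control vector and 2907 and 3066 with NSD2. Des, the gene of the muscle intermediate filament desmin, had 8.80 and 8.46 with control vector and 9.77 and 9.21 with NSD2. Both NSD2 arrays were higher (0.86 ± 0.23, limma adjusted p = 0.9996). Of the 14 pericyte and smooth muscle markers, some of which are members, 6 were above background, with a summed signal of 66503 and 70176 on the controls and of 64409 and 67459 with NSD2 that was mostly the Acta2 probe. Without overlap of the groups, 1 of these 6 was higher with NSD2 (Des) and 2 were lower. Over the 7872 genes above background on at least 2 arrays, 15.2% were higher and 15.6% lower in this way. The pericyte proteoglycan gene Cspg4 had the largest lower mean of the list, with 7.31 and 7.25 with control vector and 6.59 and 6.99 with NSD2 (-0.49 ± 0.21, limma adjusted p = 0.9996). Myh11, Rgs5, Kcnj8 and Cnn1 were above background on no array. The part of these markers in the results was not tested. No named probe was matched to Nsd2 (Whsc1), so the transduced gene was not analysed here. In bulk RNA, fewer cells of a type and less RNA per cell cannot be told apart.

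None of the 23 measured genes passed the test between NSD2 and control vector. In this paragraph each gene is counted by its brightest probe. The count was 0 at a limma adjusted p under 0.05, where 0.0241% of all 16593 genes and 0.0508% of the 7872 genes above background on at least 2 arrays passed, and the smallest adjusted p of a member was 0.9996. At an unadjusted limma p under 0.05 there was 1 member, Csrp2, while 3.91% of all genes and 3.68% of the measured ones had such a p. Differences ran from -0.49 to 0.47 on the log2 scale, with a median of 0.02, against a median of -0.00308 over those 7872 measured genes. No member differed by 1.5-fold or more, and 1.38% of the measured genes and 1.14% of all genes did. The 95% intervals of all 23 differences lay within 2-fold in either direction, as did those of 97.6% of the measured genes and 97.8% of all genes. This depended on the processing. With an offset of 16 Mylk differed by 0.574 ± 0.307 (SE), and with median scaling Ankrd1 differed by -0.432 ± 0.353. These 2 intervals reach beyond 2-fold. In 15 of the 23 (65.2%) the difference between groups was smaller than the larger gap between the 2 arrays of a group, and 80.3% of the measured genes had this property.

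By mean, 13 members were higher with NSD2 and 10 lower. The groups did not overlap in 4 members that were higher with NSD2 (17.4%, where 15.2% of the measured and 15.8% of all genes were so) and in 7 that were lower (30.4%, where 15.6% of the measured and 16.2% of all genes were so). The 4 were Tagln, Tpm1, Tpm3 and Mylk, and the 7 were Actg2, Srf, Ankrd1, Csrp1, Csrp2, Fhl1 and Pdlim7. Sorted by role, 8 of 9 thin-filament genes had a higher mean and all 6 genes of the LIM domain and Ankrd1 group a lower one, with medians of 0.16 and -0.32. Without control vector 1 the count among thin-filament genes was 5 of 9, and 5 of 9 also where a gene's probes above background were averaged. The thin-filament median was then 0.03 and 0.01. The count of 6 lower in the LIM domain and Ankrd1 group was the same under all 14 alternatives run for these genes, while its median ranged from -0.40 (without control vector 1) to -0.19 (without control vector 2). Of the 14, the filter on probes above background, the robust trended moderation and the replicate number as a block leave differences unchanged, so they could not alter this count. Csrp1, Csrp2, Fhl2 and Pdlim7 have 1 probe each, so the choice of probe could not alter them. Averaging probes left 8 of the 23 with a higher mean. The averages weight probes alike, and in Tpm2 and Tpm3 they take in a dim probe above background on the control arrays only.

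**Figure D1:**
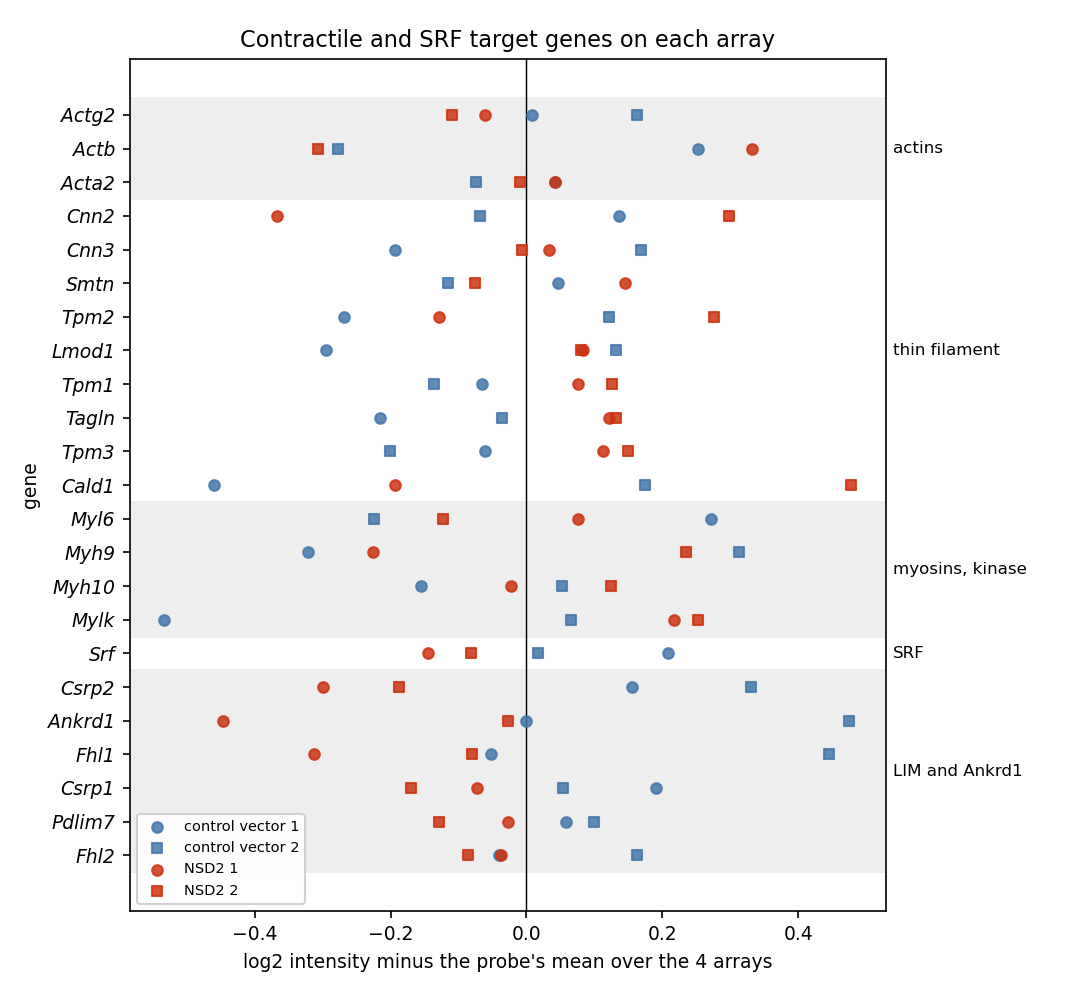
Log2 intensity of each of the 23 measured genes on each array, as the distance from the probe's own mean over the 4 arrays (x axis), with genes grouped by role (y axis, shaded bands). Circles are replicate 1, squares replicate 2, blue the control vector and red NSD2; both red points lie left of both blue points in Actg2, Srf and 5 of the 6 genes at the bottom, and right of them in Tpm1, Tpm3, Tagln and Mylk.

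**Figure D2:**
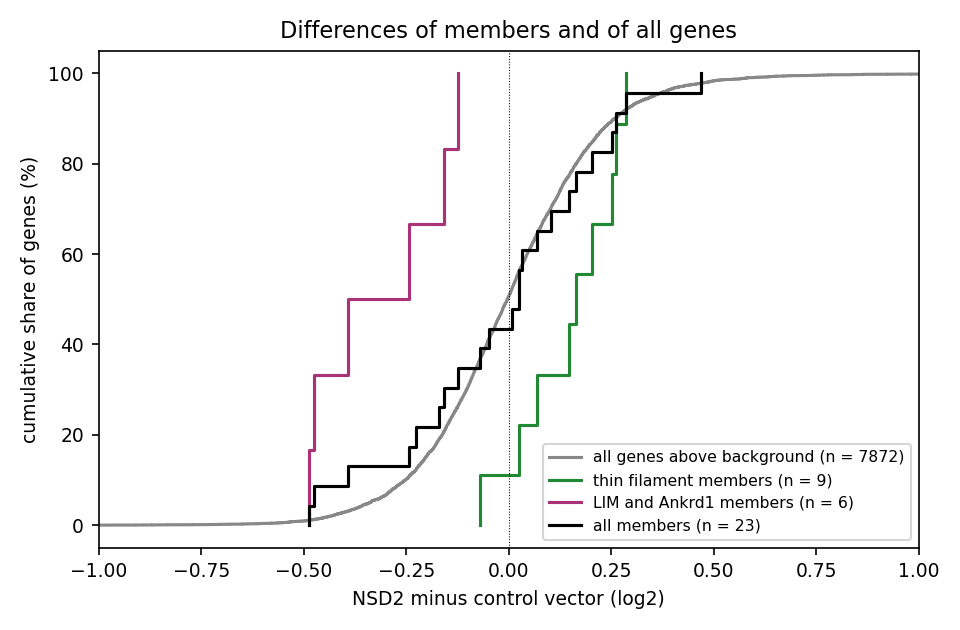
Cumulative share of genes (y axis, percent) against the difference of NSD2 minus control vector on the log2 scale (x axis), for the 7872 genes above background on at least 2 arrays, all 23 measured members, the 9 thin-filament genes and the 6 genes of the LIM domain and Ankrd1 group. The curve of all members crosses 0 near that of all genes, while the 6 lie wholly below 0 and 8 of the 9 above it.

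Srf, the factor that binds the CArG box, had log2 intensities of 11.35 and 11.15 on control vector 1 and 2, and of 10.99 and 11.06 on NSD2 1 and 2. Both NSD2 arrays were below both control arrays, and the means were 11.25 ± 0.13 and 11.02 ± 0.04 (SD, n = 2 per group). The difference of -0.23 ± 0.20 (SE) had a 95% interval of -0.66 to 0.21 and did not pass (limma adjusted p = 0.9996). A dimmer Srf probe, above background on 1 array, ran the other way with a difference of 0.26. Mrtfa, which encodes the coactivator MRTF-A, had signals of 163 and 223 on the control arrays and of 143 and 154 on the NSD2 arrays, and only control vector 2 was above background. The brightest of the 3 probes of Mrtfb, the gene of MRTF-B, had signals of 146 and 230 on the control arrays and of 149 and 159 on the NSD2 arrays. That probe too was above background on control vector 2 alone, so no level is given for either coactivator.

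Promoter sequences from RefSeq (GRCm38.p6), of 250 bases before to 50 after an annotated start, were found for 28 of the 33 genes, in 38 windows. No window was found for Actg2, Actb, Tagln, Csrp2 and Tgfb1i1. A CArG box (CC, then 6 bases of A or T, then GG, a pattern that reads the same on both strands) was in 8 windows of 7 genes, Srf, Actg1, Cnn2, Myl6, Myl9, Fhl1 and Fhl2. This is 21.1% of the members' windows, where 1.63% of all 32851 windows hold it. The list was drawn up to hold SRF target genes, so a higher share may be built into it. The TEAD core GGAATG, or CATTCC on the other strand, was in 13 windows of 12 genes (34.2% of windows, against 14.7% of all), and it overlapped no CArG box there. A match describes letters and not a bound site, and windows without one, such as that of Acta2, may hold degenerate forms that were not searched. The windows of 4 measured genes with a CArG box are shown first, with the box in capitals, because SRF is defined by binding it. They lie at chr17:46556113-46556412 (Srf, minus strand), chr10:79988350-79988649 (Cnn2, plus), chr10:128492960-128493259 (Myl6, minus) and chrX:56779433-56779732 (Fhl1, plus).
Srf: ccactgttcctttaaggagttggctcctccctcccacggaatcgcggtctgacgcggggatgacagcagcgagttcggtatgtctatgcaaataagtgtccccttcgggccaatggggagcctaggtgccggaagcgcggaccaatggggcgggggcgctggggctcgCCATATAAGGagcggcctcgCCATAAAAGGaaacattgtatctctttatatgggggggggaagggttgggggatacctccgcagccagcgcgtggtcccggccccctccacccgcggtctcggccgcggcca
Cnn2: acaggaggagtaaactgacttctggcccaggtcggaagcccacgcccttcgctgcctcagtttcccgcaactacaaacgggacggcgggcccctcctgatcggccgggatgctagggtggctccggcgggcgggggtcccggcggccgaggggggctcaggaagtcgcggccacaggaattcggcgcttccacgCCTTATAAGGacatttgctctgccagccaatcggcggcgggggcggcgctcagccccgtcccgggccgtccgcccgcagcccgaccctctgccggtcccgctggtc
Myl6: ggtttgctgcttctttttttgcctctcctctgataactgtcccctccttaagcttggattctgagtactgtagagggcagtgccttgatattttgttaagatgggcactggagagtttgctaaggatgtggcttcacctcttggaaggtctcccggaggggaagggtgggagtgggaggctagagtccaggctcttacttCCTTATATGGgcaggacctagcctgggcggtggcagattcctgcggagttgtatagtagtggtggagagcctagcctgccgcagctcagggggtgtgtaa
Fhl1: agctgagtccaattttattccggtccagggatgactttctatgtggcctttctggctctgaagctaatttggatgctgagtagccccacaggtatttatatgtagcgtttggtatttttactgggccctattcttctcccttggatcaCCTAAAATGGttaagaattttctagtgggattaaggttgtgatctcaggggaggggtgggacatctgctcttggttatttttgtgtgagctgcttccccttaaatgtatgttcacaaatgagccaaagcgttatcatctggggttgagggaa
The Srf window holds a pair of boxes, CCATATAAGG at position -82 and CCATAAAAGG at -62 from the start site. The box is CCTTATAAGG at -56 in Cnn2, CCTTATATGG at -50 in Myl6 and CCTAAAATGG at -102 in Fhl1.

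The windows of Ankrd1 and Mylk are shown because these genes had the second-largest lower and the largest higher mean among the members, and the TEAD core is in capitals. They lie at chr19:36119795-36120094 (Ankrd1, minus strand) and chr16:34784700-34784999 (Mylk, plus).
Ankrd1: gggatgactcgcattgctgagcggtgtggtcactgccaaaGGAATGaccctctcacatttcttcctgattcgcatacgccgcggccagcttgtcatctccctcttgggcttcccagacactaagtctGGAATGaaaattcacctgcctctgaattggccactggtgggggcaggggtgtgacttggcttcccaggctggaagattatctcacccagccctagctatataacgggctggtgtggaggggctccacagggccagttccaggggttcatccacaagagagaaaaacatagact
Mylk: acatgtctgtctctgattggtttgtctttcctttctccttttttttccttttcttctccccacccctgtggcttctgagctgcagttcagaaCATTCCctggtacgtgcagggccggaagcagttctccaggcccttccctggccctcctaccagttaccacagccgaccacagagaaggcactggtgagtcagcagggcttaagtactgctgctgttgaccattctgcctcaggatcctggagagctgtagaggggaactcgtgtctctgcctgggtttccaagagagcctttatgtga
Of the measured members, all 5 with a CArG box in a window (Cnn2, Fhl1, Fhl2, Myl6 and Srf) had a lower mean with NSD2, with a median of -0.12 and a range of -0.39 to -0.05. Of the 14 with windows that lack the box, 11 had a higher mean and 3 a lower one (median 0.09). Of the 8 with a TEAD core, 7 were higher and 1, Ankrd1, was lower. Actg2, Actb, Tagln and Csrp2 were measured but had no window, so they are in none of these counts. Their differences were -0.17, 0.02, 0.25 and -0.49, and whether their promoters hold either motif was not examined. These counts describe few genes, were not tested and moved with single arrays and with the choice of probe. Without control vector 1, Cnn2 and Myl6 turned sign (0.03 and 0.20), so that 3 of the 5 with a box were lower, while 5 of the 14 without it and 4 of the 8 with a TEAD core were higher. With a gene's probes averaged, 7 of the 14 and 5 of the 8 were higher, and all 5 with a box were lower. By the most variable probe, without NSD2 1 and without NSD2 2, 4 of the 5 with a box were lower in each case.

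**Figure D3:**
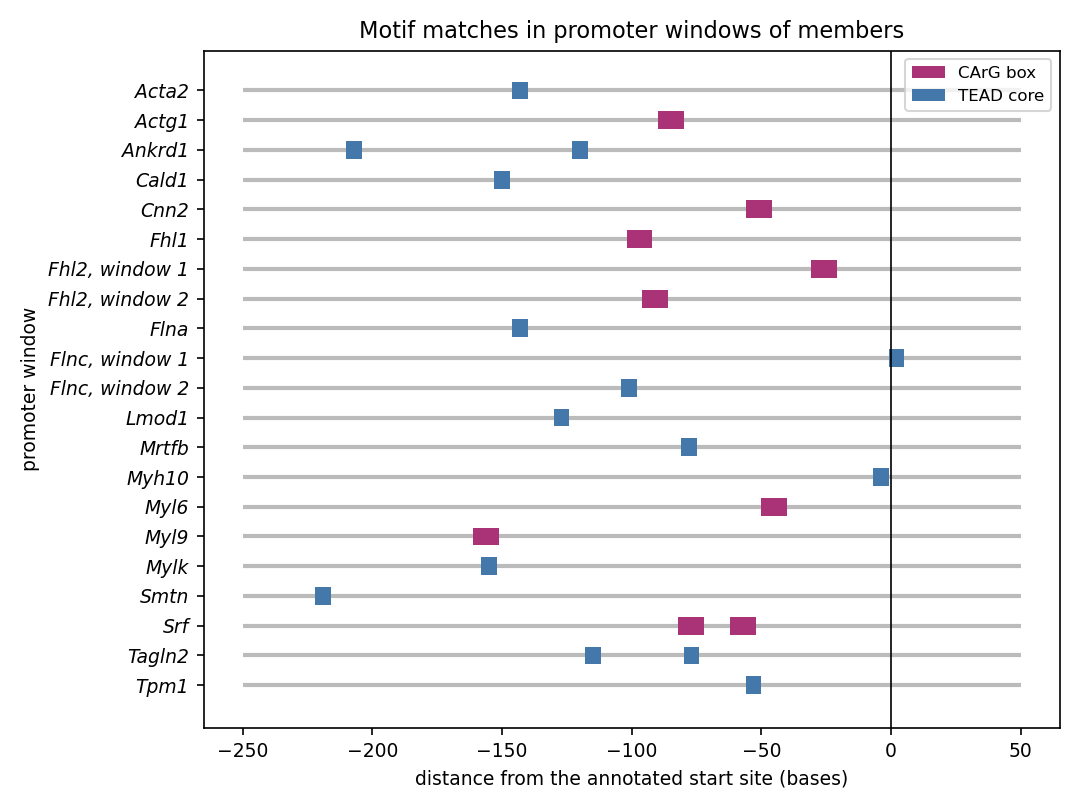
Positions of CArG boxes (purple) and TEAD cores (blue) in promoter windows of members that hold at least 1 of them, in bases from the annotated start site (x axis, 0 at the start), with 1 line per window (y axis). CArG boxes start between positions -161 (Myl9) and -31 (Fhl2).

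The actins form the thin filament. Acta2 encodes smooth muscle alpha-actin, the defining protein of myofibroblast stress fibres. Its brightest probe had signals of 63782 and 66789 on control vector 1 and 2, and of 61474 and 64145 on NSD2 1 and 2, and was the fifth brightest of all 25697 probes by mean. The highest signals on the arrays lay between 67220 and 69117, so this probe was near the top of the range. After normalization its values were 15.98 and 15.86 for the control arrays and 15.98 and 15.93 for the NSD2 arrays, and the groups overlapped. The difference was 0.03 ± 0.20 (SE, 95% interval -0.40 to 0.46). The other 3 Acta2 probes differed by -0.35 ± 0.23, -0.07 ± 0.20 and 0.15 ± 0.20, so Acta2 probes had both signs. The probe at -0.35 had signals of 13802, 21498, 9330 and 18542 on control vector 1 and 2 and NSD2 1 and 2, and the groups overlapped after normalization.

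Actb, the cytoplasmic beta-actin gene often used as a reference, had log2 intensities of 15.59 and 15.06 on the control arrays and of 15.67 and 15.03 on the NSD2 arrays. Replicate 2 was lower than replicate 1 in both groups, and the groups overlapped, with a difference of 0.02 ± 0.25. The other Actb probes all had lower means with NSD2, by -0.06 ± 0.35, -0.21 ± 0.52, -0.27 ± 0.39 and -0.44 ± 0.31, with intervals that reach from -1.32 to 0.90. In each of the 5 Actb probes the gap between replicates exceeded the difference between groups. The widest gaps were at the probe with signals of 23623 and 9102 on the control arrays and of 21827 and 7561 on the NSD2 arrays, where replicate 2 minus replicate 1 was -1.84 and -2.01 on the log2 scale.

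Actg2, which encodes the gamma-actin of enteric smooth muscle, had values of 12.74 and 12.90 on the control arrays and of 12.67 and 12.62 on the NSD2 arrays. With NSD2 both values were below both controls, by a mean difference of -0.17 ± 0.20 that did not pass. The only probe of Actg1, the cytoplasmic gamma-actin gene, had signals of 186, 203, 153 and 156 on control vector 1 and 2 and NSD2 1 and 2. It was above background on control vector 1 alone, which gives no level for this gene.

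The thin-filament genes encode proteins that coat or cap actin filaments. Cald1 (caldesmon, which binds actin and myosin) had the largest mean difference among them, with values of 9.66 and 10.30 on the control arrays and of 9.93 and 10.60 on the NSD2 arrays. The groups overlapped, the difference was 0.28 ± 0.26, and the other Cald1 probe differed by -0.26 ± 0.24. Tpm3 (tropomyosin 3) had 12.76 and 12.62 with control vector and 12.93 and 12.97 with NSD2, which were both higher (0.26 ± 0.20, 95% interval -0.17 to 0.69). A dimmer Tpm3 probe, above background on both control arrays and on no NSD2 array, had a mean at least 1.07-fold lower with NSD2, opposite to the bright one. That bound leaves out the spread of the arrays, and the 95% interval of this probe's difference was -0.75 to 0.11.

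Tagln encodes transgelin (SM22-alpha), an early smooth muscle marker and a classic SRF target. Its values were 10.45 and 10.63 with control vector and 10.79 and 10.80 with NSD2. Both NSD2 arrays were higher, by a mean difference of 0.25 ± 0.20 with an interval of -0.18 to 0.68, and the gene has 1 probe. Tpm1, the tropomyosin 1 gene, had 14.80 and 14.73 with control vector and 14.95 and 15.00 with NSD2. Again the groups did not overlap, and the difference of 0.20 ± 0.20 did not pass.

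The other 5 measured thin-filament genes differed by -0.07 to 0.16, all with overlapping groups. Lmod1 (leiomodin 1, an actin filament nucleator) differed by 0.16 ± 0.21 and Tpm2 by 0.15 ± 0.22, while Smtn (smoothelin), Cnn3 and Cnn2 (calponins) differed by 0.07 ± 0.21, 0.03 ± 0.21 and -0.07 ± 0.24. A dimmer Tpm2 probe, above background on the control arrays only, was at least 1.08-fold lower with NSD2. The other Cnn2 probe had 9.64 and 9.64 with control vector and 9.17 and 9.51 with NSD2, without overlap (-0.30 ± 0.21). Cnn1, the smooth muscle calponin, had signals of 159 and 197 on the control arrays and of 143 and 164 on the NSD2 arrays, above background on none.

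Among the myosins and their kinase, Mylk had the largest higher mean of all members. It encodes the kinase that phosphorylates the regulatory light chain of myosin and so starts contraction. Its values were 7.12 and 7.72 with control vector and 7.87 and 7.91 with NSD2, from signals of 194, 324, 256 and 344. Both NSD2 arrays were above both control arrays at this probe and at the other Mylk probe, whose values were 7.19, 7.44, 7.79 and 7.66. The differences were 0.47 ± 0.23 (95% interval -0.01 to 0.95) and 0.41 ± 0.21, and neither passed (limma adjusted p = 0.9996). The probes were little above background, where the offset of 50 compresses differences, and the first of them differed by 0.77 with control vector 1 alone as the control and by 0.17 with control vector 2 alone.

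The motor and light chain genes differed little. Myh9 and Myh10, the heavy chains of non-muscle myosin IIA and IIB, differed by 0.01 ± 0.24 and 0.10 ± 0.21. Myl6, an essential light chain, differed by -0.05 ± 0.22. All 3 had overlapping groups, and in each of them the gap between the arrays of a group was larger than the difference between groups.

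The LIM domain genes encode adaptor proteins of actin filaments and focal adhesions, several of which also act in the nucleus as transcriptional cofactors. Csrp2, a cysteine and glycine-rich protein of smooth muscle and fibroblasts, had the largest lower mean of all members. Its values were 12.64 and 12.82 with control vector and 12.19 and 12.30 with NSD2, from signals of 5561, 8622, 3836 and 6186. The groups did not overlap, with means of 12.73 ± 0.12 and 12.24 ± 0.08 (SD, n = 2). The difference of -0.49 ± 0.20 had an interval of -0.92 to -0.05, an unadjusted limma p of 0.030 and an adjusted p of 0.9996.

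Ankrd1, an ankyrin repeat cofactor that is induced by stretch and is a target of YAP and TEAD, was lower with NSD2 at both of its probes. The brighter had 12.17 and 12.64 with control vector and 11.72 and 12.14 with NSD2. Both NSD2 arrays were lower (-0.47 ± 0.23, interval -0.96 to 0.01), by -0.24 without control vector 2 and by -0.71 without control vector 1. The other probe had 11.76 and 11.81 with control vector and 11.33 and 11.06 with NSD2, again without overlap, and differed by -0.59 ± 0.21 (interval -1.03 to -0.15). It did not pass either (limma adjusted p = 0.9996).

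Fhl1, a LIM-only protein of muscle and stretch sensing, had 12.78 and 13.28 with control vector and 12.52 and 12.75 with NSD2. NSD2 2 was just below control vector 1, so that the groups did not overlap. The difference was -0.39 ± 0.22, and it was -0.15 without control vector 2 and -0.64 without control vector 1. Its other probe, with 12.60, 13.10, 12.12 and 12.72 on control vector 1 and 2 and NSD2 1 and 2, differed by -0.43 ± 0.24 with overlapping groups. Csrp1, a relative of Csrp2, had 13.02 and 12.88 with control vector and 12.75 and 12.66 with NSD2. The NSD2 arrays were both lower (-0.24 ± 0.20), as they were for Pdlim7, a PDZ and LIM protein of stress fibres (-0.16 ± 0.20). Fhl2, a cofactor that binds SRF and competes with MRTF, differed by -0.12 ± 0.20, and its groups overlapped.

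**Figure D4:**
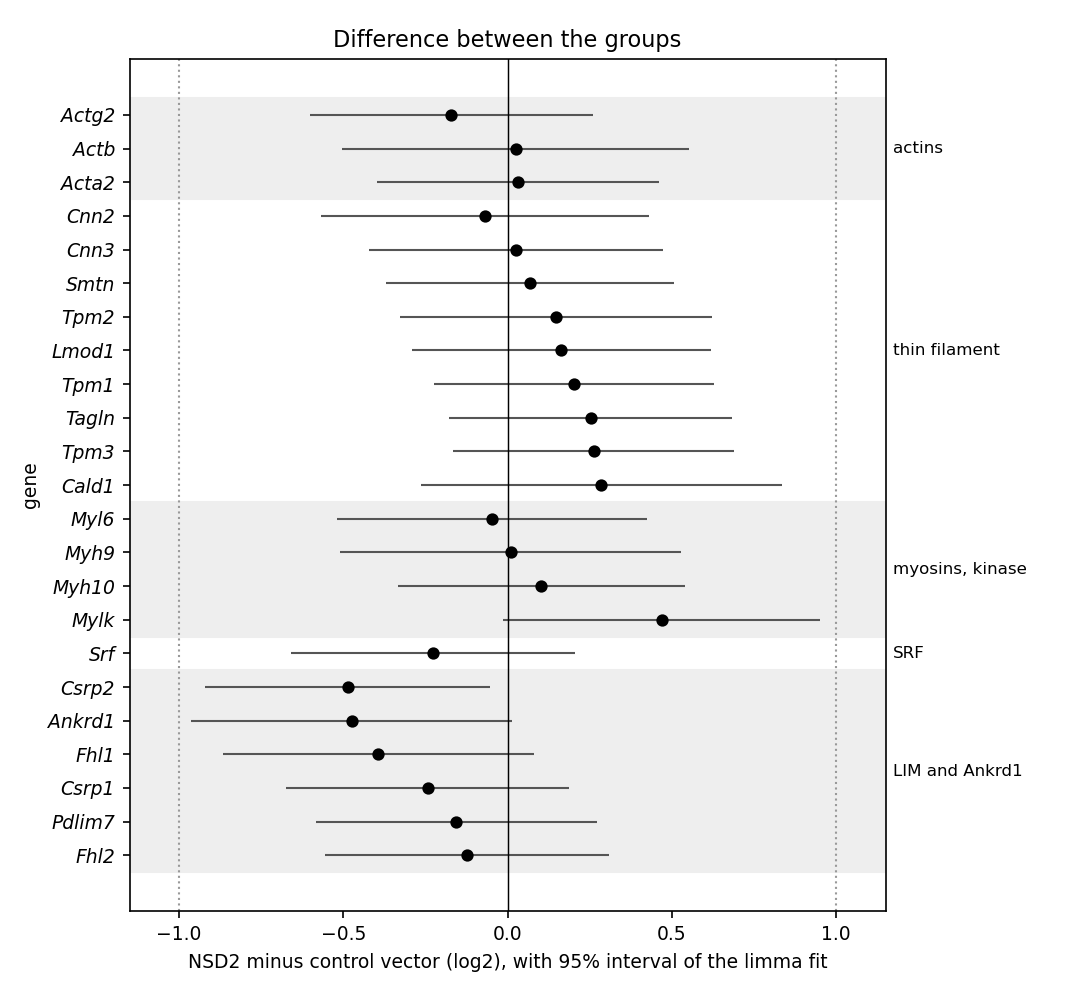
Difference of NSD2 minus control vector (log2, x axis) for the brightest probe of each of the 23 measured genes (points), with the 95% interval of the limma fit (bars), grouped by role (y axis, shaded bands). Dotted lines mark 2-fold; every interval lies between them, and that of Csrp2, from -0.92 to -0.05, is the only one that does not reach 0.

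Several members were measured by more than 1 probe, which repeats the measurement on the same RNA and adds no sample. Of the 10 genes with 2 or more probes above background on at least 2 arrays, 4 had 1 sign at all such probes: Ankrd1, Fhl1 and Cnn2 (lower) and Mylk (higher). The other 6, Acta2, Actb, Cald1, Smtn, Tpm2 and Tpm3, had probes of both signs. Over all 39 such probes, 15 had higher and 24 lower means, with a median of -0.07, whereas the brightest probe of each gene gave 13 higher and 10 lower.

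**Figure D5:**
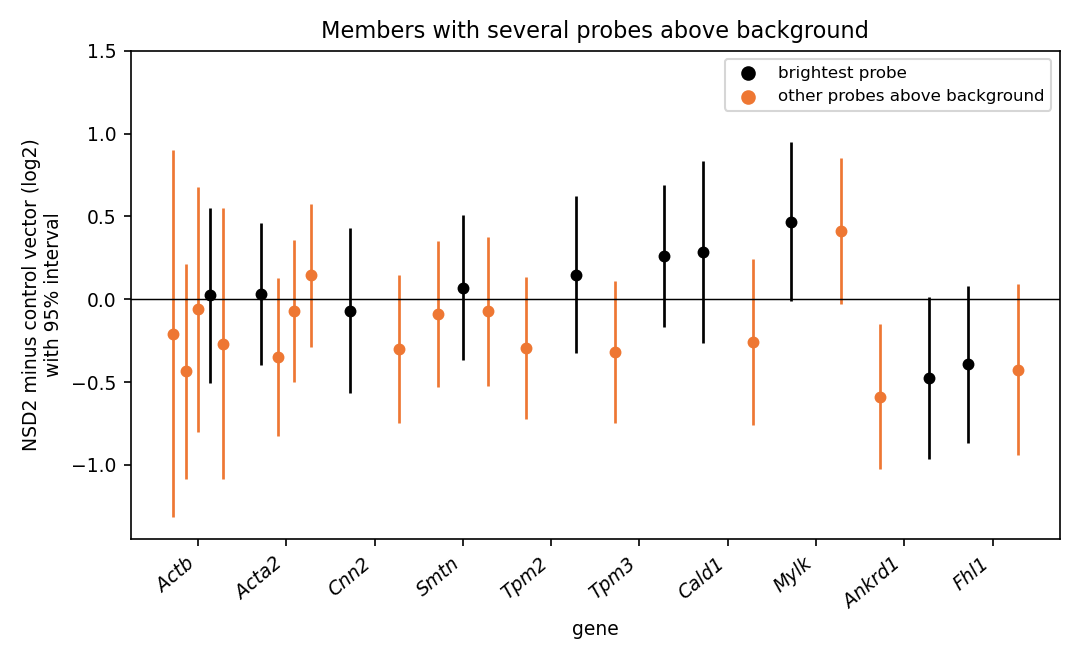
Difference of NSD2 minus control vector (log2, y axis) with its 95% interval for each probe above background on at least 2 arrays, in the 10 genes with several such probes (x axis). Black marks the brightest probe of a gene and orange its other probes; the intervals of Actb are the widest, and only in Mylk, Ankrd1, Fhl1 and Cnn2 do all points lie on 1 side of 0.

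Genes around the members in the same pathway were taken from lists, and none of their members passed (every limma adjusted p at least 0.9996). Of the SRF and MRTF regulators 16 were above background, 9 with higher and 7 with lower means (median 0.14). Without overlap of the groups 5 of the 16 were higher and 0 lower, where 15.2% and 15.6% of the measured genes were so. The actin-severing gene Cfl1 (cofilin) differed by 0.41 ± 0.21 and Arhgef1 by 0.35 ± 0.20, both without overlap. The LIM kinase gene Limk2 and the muscle cofilin gene Cfl2 differed by -0.30 ± 0.22 and -0.26 ± 0.23. In the network of myosin light chain kinases and phosphatases 2 of 7 were higher (median -0.14), and without overlap 0 were higher and 2 lower. The phosphatase catalytic subunit gene Ppp1cb differed by 0.23 ± 0.23 and the calmodulin gene Calm3 by 0.05 ± 0.21, and the light chain gene Myl12a by -0.23 ± 0.21 and the kinase gene Dapk3 by -0.16 ± 0.25.

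Of the other cytoskeletal SRF targets 2 were higher and 10 lower among 12 above background, with a median of -0.14 against -0.00308 for all measured genes. The unconventional myosin gene Myo9b differed by -0.42 ± 0.22 and the fibronectin receptor gene Itga5 by -0.42 ± 0.24, while Actr3, an Arp2/3 subunit gene, differed by 0.26 ± 0.22 and Wdr1, a cofilin cofactor gene, by 0.12 ± 0.20. Immediate-early targets of SRF and its TCF partners were split, 4 higher and 4 lower (median 0.01). Fos, the AP-1 subunit gene, had 10.58 and 9.11 with control vector and 10.58 and 10.40 with NSD2. Control vector 2 alone was low, the groups overlapped, and the difference was 0.65 ± 0.33. Egr1 differed by 0.17 ± 0.21, and the survival gene Mcl1 by -0.45 ± 0.20 and Egr2 by -0.33 ± 0.21. Of the YAP and TEAD genes 4 of 10 were higher (median -0.04), with Yap1 itself at 0.16 ± 0.22 and Amotl2 at 0.11 ± 0.21, and with Nuak2 at -0.22 ± 0.20 and Wwtr1, which encodes TAZ, at -0.18 ± 0.22. Counts without overlap, higher and lower, were 1 and 5 for the other cytoskeletal targets. They were 0 and 3 for the immediate-early targets and 0 and 1 for the YAP and TEAD genes. Of the measured genes 15.2% were higher and 15.6% lower in this way.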

How the data were processed

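The members and lists were chosen with earlier results of these data known. The first deposited table holds, per the file headers, the average bead signal of each probe, an intensity on a linear scale, not normalized and without detection p-values, so that neqc was not used. The second holds the authors' processed intensity values, whose normalization no source used here gives. Probes were named from the platform annotation. Signals were corrected with normexp (offset 50) and quantile normalized over all 25697 probes in limma 3.58.1 (R 4.3.3), and fitted with lmFit and eBayes on 4 arrays with no covariate. The tests were two-sided, with Benjamini-Hochberg adjustment over all probes at 0.05. Differences are NSD2 minus control on the log2 scale, with the SE of that fit. Each gene is given by its brightest probe. A probe was above background where it exceeded the upper 5% point of the array's lower signal side mirrored about its mode (thresholds 185, 219, 178 and 182). Where a probe was above background in 1 group only, its fold is a bound, against the higher of its own value and the lowest value above background. Array values are printed for the actins, Srf, Mrtfa, Mrtfb and the 5 largest differences per direction. Lists name up to 2 genes per direction. The number of arrays limits the precision, and an exact test of 2 against 2 cannot go below 0.333. The fit was tested on simulated data with independent noise on each array, which leaves out deviations shared by same-numbered arrays. Alternatives were the background correction, offset, normalization, processed values, filter, moderation, replicate number, probe choice and leaving out each array.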

Additional observations from a re-analysis of the deposited data

How the results depend on the processing

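The count of 0 members changed by NSD2 was 0 under all 12 alternatives run for it (smallest adjusted p 0.461, and up to 4 members at an unadjusted p under 0.05). With the replicate number as a block the count of members was 0 and that of all genes changed by NSD2 went from 4 to 37. Deviations of same-numbered arrays correlated at 0.469 across probes, but the labels do not pair them. The count of all genes became 0 with the authors' processed values, 0 with median scaling and 0 with an offset of 16 (limma, 595, 210 and 677 genes at an unadjusted p under 0.05), 1 over probes above background on at least 2 arrays and 10 with robust trended moderation, and it lay between 5 and 12 without 1 array each (11 without control vector 1 and 12 without control vector 2). In these fits a lone array borrows its spread from the other group. Members with a higher mean were 13, 9 to 12 without 1 array each, and 8 with a gene's probes averaged, a choice made after seeing the data, as was the second-brightest Acta2 probe. The median difference over members lay between -0.0904 and 0.0249, on both sides of 0. The promoter counts by alternative were also added after seeing the data.

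Of 323 differences of single members under alternatives 35 turned sign, and 10 of 23 members kept theirs throughout: Actg2, Ankrd1, Csrp1, Csrp2, Fhl1, Fhl2, Pdlim7, Mylk, Tagln and Tpm1. The filter, the robust trended moderation and the replicate block leave every difference as it was, so they could not turn a sign. Nor could averaging do so in the 13 genes with 1 probe above background. Acta2 became -0.101 with processed values, -0.0613 averaged, -0.0176 with median scaling, -0.349 by the most variable probe and -0.0736 by the second-brightest. Actb became -0.139 with processed values, -0.0323 with cyclic loess, -0.19 averaged, -0.0564 with median scaling and -0.208 by the most variable probe. Myh9 became -0.055 with processed values. Smtn, Tpm2 and Tpm3 became -0.0315, -0.073 and -0.0293 averaged. Smtn, Tpm3 and Srf became -0.0742, -0.408 and 0.265 by the most variable probe, the last 2 of these probes being above background on 0 arrays and 1 array. Leaving out 1 array gave ranges that crossed 0 for Acta2 (-0.0253 to 0.0897), Actb (-0.295 to 0.345), Cald1 (-0.0506 to 0.621), Cnn2 (-0.401 to 0.263), Cnn3 (-0.155 to 0.206), Lmod1 (-0.0501 to 0.377), Myh10 (-0.00161 to 0.206), Myh9 (-0.308 to 0.326), Myl6 (-0.296 to 0.201), Smtn (-0.0409 to 0.179) and Tpm2 (-0.0549 to 0.35). Among members that kept their sign, the same ranges were -0.249 to -0.0932 for Actg2, -0.713 to -0.237 for Ankrd1, -0.641 to -0.145 for Fhl1, -0.225 to -0.0212 for Fhl2 and 0.163 to 0.343 for Tagln, and for Srf -0.321 to -0.13. The causes were not tested.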

Other observations

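Because the 5 measured LIM domain members all had lower means with NSD2, the wider family of LIM domain genes was listed after these values were seen, and no test was made. Of 66 listed genes 57 had a probe and 33 were above background on at least 2 arrays. Of these 33, 10 had higher and 23 lower means (median -0.12), and without the members the counts were 10 and 18 (median -0.10), where 49.3% of all measured genes were higher. These counts share genes with the lists above, so they are not a separate observation for those genes. Pdlim1, Pdlim5 and Zyx are also among the other cytoskeletal SRF targets, and Limk1 and Limk2 among the SRF and MRTF regulators. The PDZ and LIM gene Pdlim5 differed by -0.40 ± 0.22 without overlap of the groups, while Pdlim4, a relative of Pdlim7, differed by 0.38 ± 0.22 in the other direction without overlap, so the family did not share 1 sign. None of the 33 passed (limma, 1 at an unadjusted p under 0.05, Csrp2).

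Actb, a common reference gene, was lower on replicate 2 than on replicate 1 in both groups at each of its 5 probes, with gaps of -0.53 to -1.84 between control arrays and of -0.64 to -2.01 between NSD2 arrays, while Myh9 was higher on replicate 2 by 0.63 and 0.46 and Cald1 by 0.63 and 0.67. The cause was not tested.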
